A study of Homo sapiens with 16 samples.

Results

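Homologous recombination and Fanconi anaemia genes form the set described here. It holds 39 genes chosen by name for their known roles in the repair of DNA breaks and interstrand crosslinks, out of 19356 protein-coding genes in the table. The choice was made with earlier results of these data known. The cells were human BJ fibroblasts, labelled as a human fibroblast cell line, in 4 stages that the labels call Primary BJ, BJ hTERT+, BJ hTERT+ SV40+ and BJ hTERT+ SV40+ Ras-G12V. They are named below the primary, immortalized, transformed and metastasizing stage. Each stage was kept for 6 passages at atmospheric or at 3% oxygen, in the same medium with serum and 5% CO2, and gave 2 poly-A RNA-seq libraries (a and b) from plates grown in parallel, which makes 8 groups and 16 libraries. All 4 stages derive from BJ cells and each later stage also carries the changes of the stages before it. The transformed and metastasizing stages therefore differ from the primary stage by more than a single element. The p-values measure only the spread between 2 parallel plates of a cell line, pooled over the 8 groups in a single fit. Standard errors are therefore not particular to a stage.

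Homologous recombination copies an intact sister sequence into a broken one. Nucleases trim the ends, BRCA1, PALB2 and BRCA2 load the strand-exchange recombinase on the exposed strand, and helicases and nucleases later untangle the joined molecules. The Fanconi anaemia pathway detects replication forks that are stuck at an interstrand crosslink, and its core complex attaches ubiquitin to FANCD2 and FANCI, after which the lesion is cut out and repaired by recombination. Most of these genes are transcribed mainly in cells that are replicating their DNA, and cultured fibroblasts keep them at modest levels.

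TPM, a level corrected for transcript length and scaled to the same total in each library, were summed over the transcripts of each gene, and fold changes are differences of log2(TPM + 0.5). A gene was called when its adjusted p from limma was under 0.01 and its change exceeded 2-fold. The hTERT gene TERT was listed at 0 to 0.543 TPM in the primary libraries and at 31.6 to 193 TPM in the others. HRAS, the Ras gene that the study's text names, was at 94.6 and 78.1 TPM in the metastasizing stage at atmospheric oxygen, below the 120 and 99 TPM of the transformed stage, and at 143 and 772 TPM in the metastasizing stage at 3% oxygen, so its total level did not separate the last stage at both oxygen levels. The 2 metastasizing libraries at 3% oxygen stood apart from each other. Between them 11% of expressed genes differed more than 2-fold, against 1.83% to 4.08% within the other groups, although none of the 39 members did. The members' median absolute log2 difference between replicates was still largest there, at 0.249 against 0.117 to 0.184 within the other groups. The fibroblast markers COL1A1 (107 to 3902 TPM), VIM (2619 to 6211 TPM) and THY1 (237 to 1472 TPM) were present in every library. The epithelial, endothelial and blood cell markers listed did not exceed 3.19 TPM. Some other fibroblast markers of the 10 listed were far lower in the later stages. LUM (4 to 4576 TPM) and DCN (2.23 to 1981 TPM) were lowest in metastasizing library a at 3% oxygen. S100A4 (23.9 to 4451 TPM) was lowest in transformed library a at atmospheric oxygen. COL1A2, COL3A1, FAP and PDGFRB stayed at 18 TPM or more. The summed level of 10 fibroblast markers was 15547 to 22449 TPM in primary and immortalized and 3952 to 5732 TPM in transformed and metastasizing libraries, and its part in the differences between these stages was not tested.

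All 39 members reached 1 TPM in at least 1 library of every group and all were tested in every comparison. FANCI, a partner of FANCD2 in the ubiquitinated pair, was the highest member at a mean of 118 TPM over the 16 libraries. RAD51AP1, which assists the recombinase, followed at 61.7 TPM, then TOPBP1, an adaptor that activates the ATR kinase, at 55.8 TPM, and FANCG, a subunit of the core complex, at 52.2 TPM. The highest members of the other role groups were RAD51B (48.8 TPM), the end-resection factor RBBP8 (44.2 TPM), the nuclease subunit MUS81 (40.8 TPM) and BRCA1 (30.7 TPM). The value of RAD51B rests on a short transcript that is treated separately at the end, and the next paralog was RAD51C (40.4 TPM). For 30 of the 39 members the lowest of the 8 group means was that of immortalized cells at atmospheric oxygen, and for 6 it was that of primary cells at atmospheric oxygen. The highest group mean was in metastasizing cells at atmospheric oxygen for 16 members and in primary cells at 3% oxygen for 10. These counts were not made over all genes. Against immortalized cells at atmospheric oxygen, all tested genes also had positive median log2 fold changes. These were 0.11 for immortalized cells at 3% oxygen and 0.22 for transformed cells at atmospheric oxygen.

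**Figure D1:**
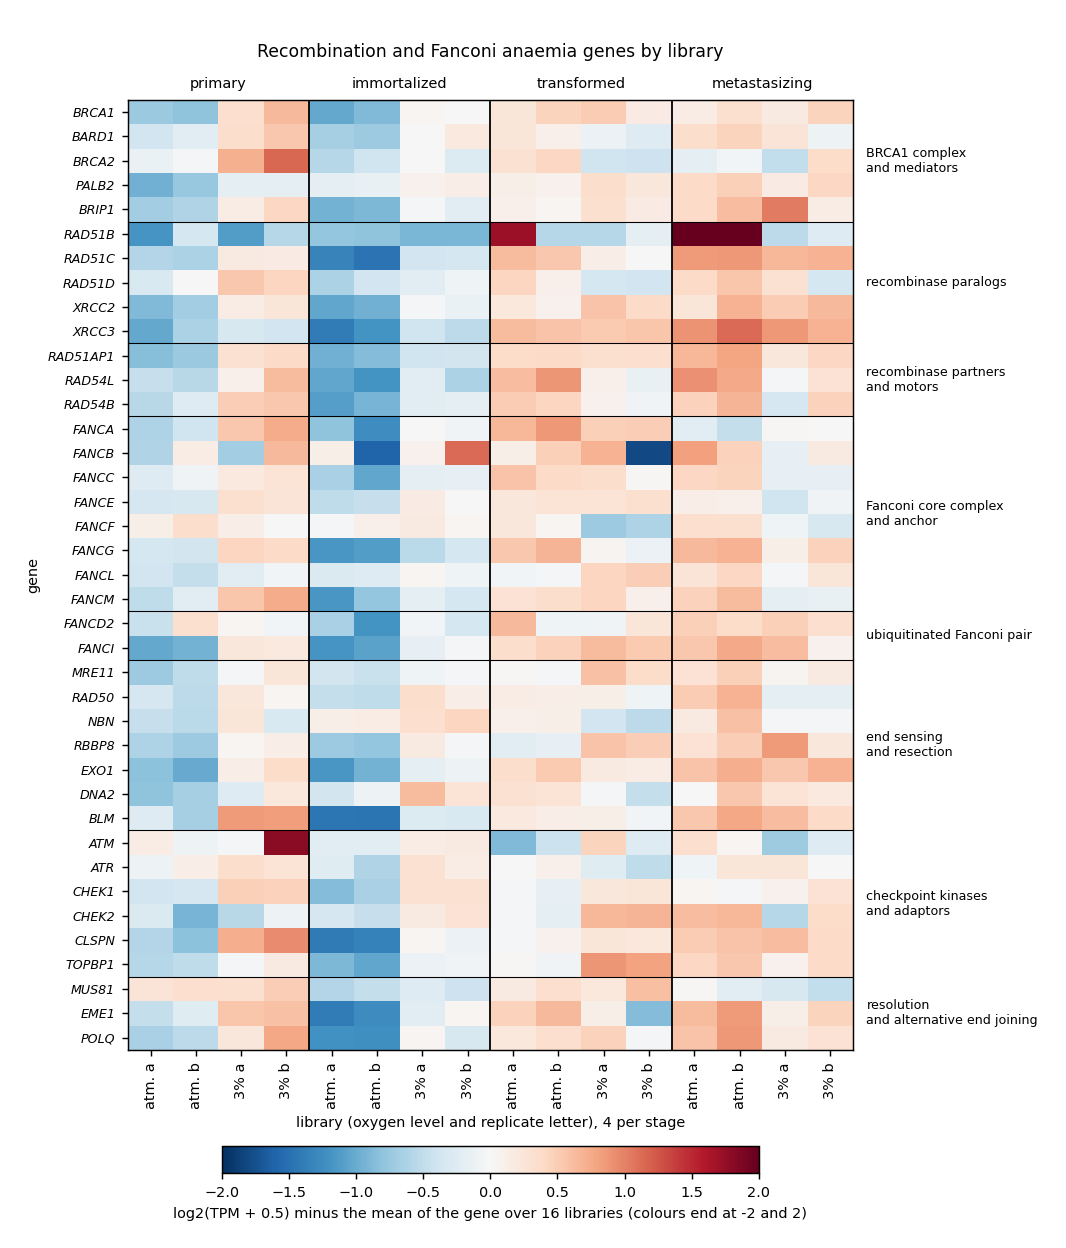
Heat map of the 39 members (vertical axis, by role) in the 16 libraries (horizontal axis, 4 per stage), coloured by log2(TPM + 0.5) minus the mean of the gene over all libraries. The 2 immortalized columns at atmospheric oxygen are the bluest, in which 30 members have their lowest group mean, and single dark cells in RAD51B and ATM come from short transcripts. The same count was not made over all genes.

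The promoters of a few members carry a sequence that E2F factors, the regulators of S-phase genes, are known to bind. A window of 250 bases before to 50 bases after the annotated start (RefSeq, GRCh38.p14) was at hand for 35 members. The letters TTTCCCGC, TTTCGCGC, TTTGCCGC or TTTGGCGC stood on either strand in the windows of 7 of these 35 members (20%), and in those of 5.49% of 14895 protein-coding genes. For each of the 7, 100 bases that hold the match are given 5′ to 3′ along the gene with the match in capitals. Of these 7, 6 were called in at least 1 of the 10 comparisons of steps or oxygen levels described further on. So were 21 of all 39 members, and 62.4% of 11126 genes tested in all 10 were called in none. TOPBP1 was called only in a difference of oxygen responses. A link between the letters and the calls was not tested. Positions count from 1 at the start itself and from -1 at the base before it.
CLSPN, chr1:35769949-35770048, minus strand, match from base -5: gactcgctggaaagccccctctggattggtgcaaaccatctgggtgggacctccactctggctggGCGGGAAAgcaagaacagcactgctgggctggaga
EXO1, chr1:241848134-241848233, plus strand, match from base 5: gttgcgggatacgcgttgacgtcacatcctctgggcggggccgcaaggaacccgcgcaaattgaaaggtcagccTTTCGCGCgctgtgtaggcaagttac
FANCD2, chr3:10026367-10026466, plus strand, match from base -2: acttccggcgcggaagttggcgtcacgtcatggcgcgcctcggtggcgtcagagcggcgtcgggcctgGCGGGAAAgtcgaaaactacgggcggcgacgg
TOPBP1, chr3:133661912-133662011, minus strand, match from base -7: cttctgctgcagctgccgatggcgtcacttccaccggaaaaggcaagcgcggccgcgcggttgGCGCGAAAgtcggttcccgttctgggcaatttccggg
XRCC2, chr7:152676112-152676211, minus strand, match from base 22: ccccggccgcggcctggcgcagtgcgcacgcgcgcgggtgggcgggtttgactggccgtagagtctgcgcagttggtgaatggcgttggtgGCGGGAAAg
FANCC, chr9:95317680-95317779, minus strand, match from base -46: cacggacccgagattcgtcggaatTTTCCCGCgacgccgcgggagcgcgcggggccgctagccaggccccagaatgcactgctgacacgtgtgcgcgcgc
FANCA, chr16:89816760-89816859, minus strand, match from base -172: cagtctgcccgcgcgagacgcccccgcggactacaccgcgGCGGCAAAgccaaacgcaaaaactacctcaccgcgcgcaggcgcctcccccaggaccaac
In CLSPN, EXO1, FANCD2 and TOPBP1 the match lay within a few bases of the start, and FANCC held another match from base -172. The letters TTTGAA or TTCGAA, the core of the CHR element of mitotic genes, stood in the windows of 4 members (11.4%: ATM, BRIP1, FANCC and POLQ) and of 17.4% of all genes. The letters ACGTG, the core that hypoxia-inducible factors bind and that also lies within many E-boxes, stood in 10 members (28.6%) and in 28.9% of all genes. BRCA1, BLM, RAD51C and EME1, which have large changes below, hold none of the E2F letters in their windows. These matches are descriptions of the letters and no binding was measured.

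In primary cells, members of every role group but the recombinase paralogs were called higher at 3% oxygen. Of the 39 members 9 were called higher (23.1%) and none lower, where 2.78% of 12184 tested genes were called higher. With the p threshold alone 21 members were higher (53.8%) against 8.36% of tested genes. A positive value was found in 37 members and in 6876 of the 12184 tested genes. The members' median log2 fold change was 0.76 beside 0.08 over all tested genes. CLSPN, an adaptor that lets the ATR kinase activate CHEK1 at stalled forks, was measured at 25.4 and 21.4 TPM at atmospheric and at 63.4 and 74 TPM at 3% oxygen. It showed the largest rise, 1.53 on the log2 scale (SE 0.12, adjusted p = 2.82e-05). BLM, a helicase that unwinds joined molecules and supports resection, stood at 8.66 and 6.42 TPM against 19.2 and 19 TPM, a rise of 1.30 (SE 0.16, adjusted p = 0.000301). In neither gene did the libraries of the oxygen levels overlap.

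BRCA1, which recruits the recombinase loader and also forms a ubiquitin ligase with BARD1, was at 17.1 and 16.3 TPM in primary cells at atmospheric oxygen and at 36.5 and 45.7 TPM at 3% oxygen. Its rise was 1.27 (SE 0.15, adjusted p = 0.000298). The other called members were FANCI (1.20), the nuclease EXO1 (1.17), RAD51AP1 (1.14), the core subunit FANCA (1.14), the end-joining polymerase POLQ (1.08) and FANCM (1.01), the translocase that anchors the core complex to DNA. By role, the medians ran from 0.51 in the 8 core complex genes to 0.93 in the 3 genes of resolution and alternative end joining. All 5 genes of the BRCA1 group were higher at 3% oxygen, with values from 0.67 in PALB2 to 1.27 in BRCA1, and 3 of them passed the p threshold. The libraries of the oxygen levels did not overlap for 32 of the 39 members (82.1%), beside 67.7% of all tested genes. FANCF, the adaptor of the core complex (log2 fold change -0.17, adjusted p = 0.474), and RAD51B (-0.08, adjusted p = 0.934) were the 2 members with negative values. When only the primary libraries were fitted, which leaves fewer libraries to estimate the spread, 2 members, FANCI and RAD51AP1, stayed called. The call of FANCM was lost in 8 of 27 alternative analyses, quantile and median-ratio scaling among them, and that of POLQ in 5.

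**Figure D2:**
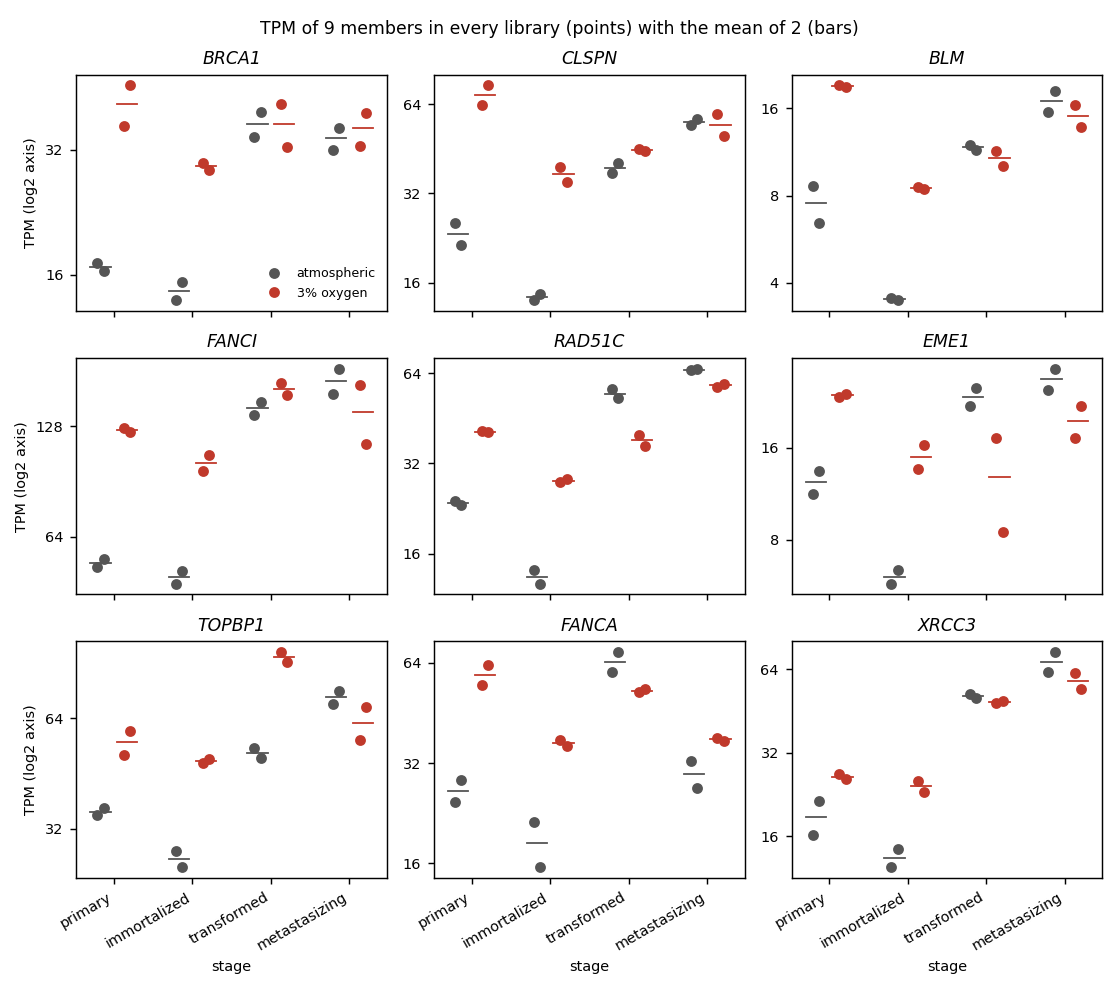
TPM on a log2 axis of 9 members by stage (horizontal axis), with a point for each library and a bar for the mean of 2, at atmospheric oxygen in grey and at 3% oxygen in red. In the primary and immortalized stages the red points of all 9 genes lie above the grey ones, BRCA1 overlaps between oxygen levels at the transformed and metastasizing stages, and CLSPN, BLM and FANCI overlap at the metastasizing stage.

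Immortalized cells showed the same direction from a lower start. Of the 39 members 7 were called higher at 3% oxygen (17.9%) and none lower, beside 2.13% of 12049 tested genes, and 19 were higher by the p threshold alone (48.7%) beside 8.92%. The median over the members was 0.72 and over all tested genes 0.11. CLSPN was at 14 and 14.7 TPM at atmospheric and 39.4 and 35.1 TPM at 3% oxygen, a rise of 1.34 (SE 0.12, adjusted p = 6.04e-05). EME1, which forms a structure-selective nuclease with MUS81, was at 5.74 and 6.37 TPM against 13.6 and 16.3 TPM, a rise of 1.23 (SE 0.26, adjusted p = 0.00611). Both pairs of libraries were well apart. Leaving out any of 8 libraries ended the call of EME1, among them all 4 immortalized ones, but its gene sum over protein-coding transcripts of at least 500 bases gave 1.06 with adjusted p = 0.00109.

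BLM (1.16), POLQ (1.08), CHEK1 (1.06), the kinase that slows the cycle after fork damage, RAD51C (1.04) and FANCI (1.03) were also called. BRCA1 was at 13.9 and 15.4 TPM against 29.7 and 28.6 TPM, and its change of 0.97 (SE 0.15, adjusted p = 0.00129) passed the p threshold without reaching 2-fold. FANCB had the largest value of the set at 1.35, but its libraries ranged from 0.407 to 5.5 TPM, those of the oxygen levels overlapped and its adjusted p was 0.225. BLM, CLSPN, FANCI and POLQ were called in both the primary and the immortalized stage, 4 of the 9 and 4 of the 7 called members and 10.3% of the 39, beside 0.5% of 11601 genes tested in both. In immortalized cells the call of POLQ was lost in 7 of 27 alternative analyses, among them leaving out any of the 4 immortalized libraries. The calls of FANCI, RAD51C and CHEK1 in immortalized cells were kept in 22, 23 and 24 of the 27. All 3 were lost with median-ratio and with quantile scaling. No member was called in the direct test of whether the oxygen response differed between these stages, where 1.86% of tested genes were called; 0 members in the upward and 2 in the downward direction (5.13%) had an unadjusted limma p under 0.05 there, beside 11.6% and 10.5% of tested genes. Without immortalized library b at 3% oxygen, or without immortalized library a at atmospheric oxygen, 4 members were called. With median-ratio rescaling, which moved the median of all tested genes from 0.11 to -0.01, 3 members were called.

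Transformed cells, which carry SV40 sequences in addition to hTERT, gave no called member at 3% oxygen, where 7.48% of 12242 tested genes were called in either direction. Unadjusted limma p-values were under 0.05 for 6 members in the upward (15.4%) and 11 in the downward direction (28.2%), beside 24.4% and 20.8% of tested genes. Groups did not overlap for 31 members (79.5%) and 72.5% of tested genes. By the adjusted p threshold alone 3 members were higher (7.69%) beside 10.9% of all tested genes, and 3 were lower (7.69%) beside 8.63%. The members' median was -0.12 and that of all tested genes 0.01. TOPBP1 was at 53.2 and 49.8 TPM at atmospheric and 96.8 and 91.2 TPM at 3% oxygen, with no overlap and a change of 0.86 (SE 0.12, adjusted p = 0.000368). RBBP8 (0.72) and FANCL (0.51), the core subunit that attaches the ubiquitin, were the other 2 higher members. FANCF (-0.81), FANCG (-0.64) and RAD51C (-0.51) were the lower ones. BRCA1 was at 34.4 and 39.4 TPM against 41.3 and 32.4 TPM, the oxygen levels overlapped, and the change was -0.01 (SE 0.15, adjusted p = 0.967).

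In metastasizing cells a single member was called lower at 3% oxygen (2.56%) beside 4.6% of 12288 tested genes. It was RAD51B, a subunit of the complex that stabilizes recombinase filaments, and its change of -3.91 (SE 0.60, adjusted p = 0.000919) came from the short transcript described at the end. Without metastasizing library a at atmospheric oxygen it was not called, and without library b at 3% oxygen 2 members were called lower. By the p threshold 3 members were lower (7.69%) beside 8.36%: RAD51B, RAD50 (-0.79), the coiled-coil ATPase of the end-sensing complex, and RAD51AP1 (-0.41). The median was -0.30 over the members and -0.13 over all tested genes. BRCA1 was at 32 and 36.1 TPM against 32.7 and 39.3 TPM, again overlapping (log2 fold change 0.08, SE 0.15, adjusted p = 0.739).

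**Figure D3:**
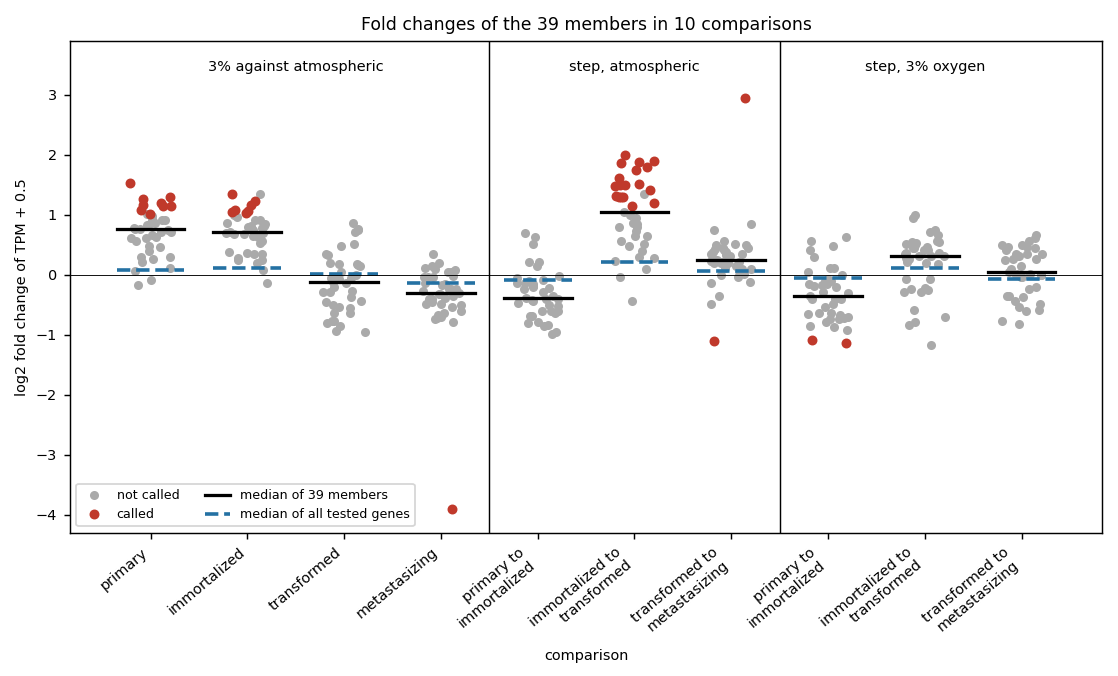
Log2 fold change of TPM + 0.5 (vertical axis) of each of the 39 members, called in red and otherwise grey, in 10 comparisons (horizontal axis), with the median of the members (solid) and of all tested genes (dashed). The members' median is above that of all genes by 0.68 and 0.61 for oxygen in primary and immortalized cells and by 0.83 for the step to transformed cells at atmospheric oxygen.

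The change of the oxygen response between immortalized and transformed cells was tested directly. Of the 39 members 11 had a lower response in transformed cells (28.2%) and none a higher one, beside 5.84% of 12715 tested genes called lower. The members' median difference was -0.90 and that of all tested genes -0.08. EME1 differed most among them at -2.16 (SE 0.37, adjusted p = 0.0015): it rose at 3% oxygen in immortalized cells and was at 22 and 25.1 TPM against 17.3 and 8.45 TPM in transformed cells. RAD51C, a paralog that joins 2 filament-stabilizing complexes, had a difference of -1.55 (SE 0.13, adjusted p = 2.49e-05), from 14.1 and 12.7 against 27.8 and 28.3 TPM in immortalized cells to 56.6 and 52.8 against 39.8 and 36.6 TPM in transformed cells. These 4 groups of RAD51C did not overlap in either stage and the direction turned.

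The other members with a called difference were RAD54L (-1.46) and RAD54B (-1.28), the motors that move the recombinase along DNA, FANCG (-1.34), FANCA (-1.27), BLM (-1.28), EXO1 (-1.18), BARD1 (-1.15), CLSPN (-1.14) and ATR (-1.08), the kinase that responds to exposed single strands. BRCA1 had a difference of -0.98 (SE 0.22, adjusted p = 0.0062) and thus stayed just under the 2-fold limit. ATR and RAD54B were lost in 15 and 17 of 27 alternative analyses, and FANCG (adjusted p = 0.0648), FANCA and BARD1 were lost when only protein-coding transcripts of at least 500 bases were summed. BARD1 was also lost without immortalized library b at 3% oxygen or transformed library a at atmospheric oxygen. RAD54L was lost without immortalized library a at 3% or b at atmospheric oxygen, or without transformed library b at either oxygen level. TOPBP1 had a difference of -0.01 (SE 0.16, adjusted p = 0.969). Between transformed and metastasizing cells TOPBP1 was the only member whose oxygen response differed by the call rule (2.56%), at -1.10 (SE 0.16, adjusted p = 0.00102), beside 5.62% of 12590 tested genes called lower. Without metastasizing library a at 3% oxygen that call was lost, as it was with median-ratio scaling, in a fit of only these groups and with protein-coding transcripts of at least 500 bases.

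**Figure D4:**
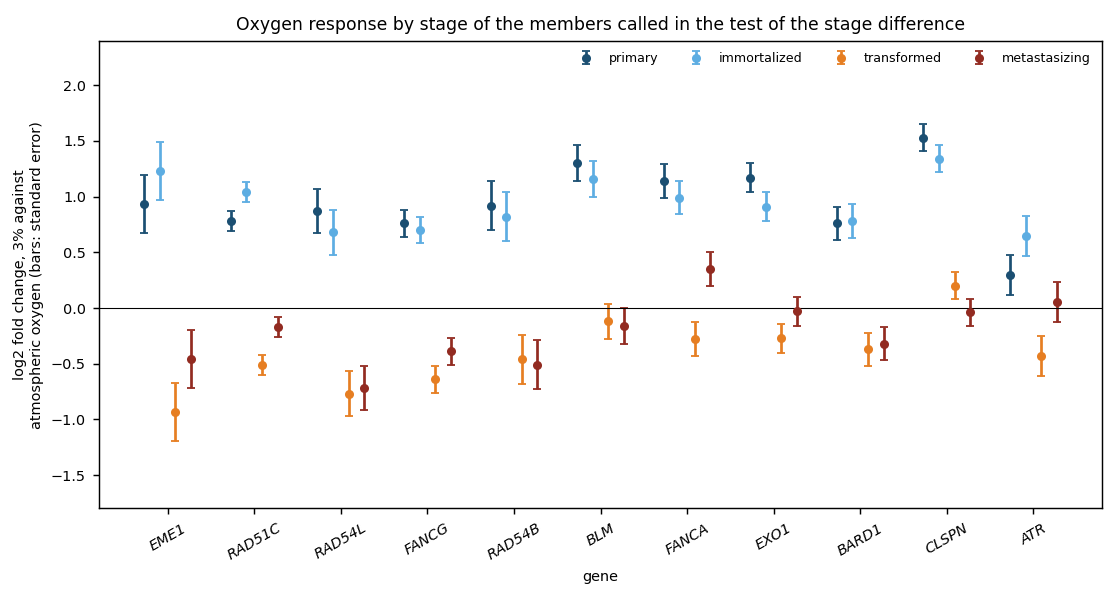
Log2 fold change between 3% and atmospheric oxygen (vertical axis, with the standard error from the limma fit of all libraries as bars) in each stage for the 11 members whose response differed between immortalized and transformed cells. Values of the primary and immortalized stage are positive for all 11 genes, and those of the transformed stage are negative for all but CLSPN (0.20). The 11 were selected by the difference between the immortalized and transformed stages, so these signs partly follow from the choice.

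Along the stages at atmospheric oxygen, the members moved most between immortalized and transformed cells. There 18 of 39 were called higher (46.2%) and none lower, beside 13.2% of 12387 tested genes called higher, and 26 were higher by the p threshold alone (66.7%) beside 25.9%. The members' median was 1.04 and that of all tested genes 0.22. With median-ratio rescaling these medians were 0.89 and 0.00, and 16 members were called. The immortalized libraries at atmospheric oxygen are the same ones that serve the oxygen comparison of that stage and the difference of responses, so these results share controls.

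RAD51C rose most, from 14.1 and 12.7 TPM to 56.6 and 52.8 TPM, a change of 1.99 (SE 0.09, adjusted p = 4.14e-08). XRCC3, its partner in a complex that acts on recombination intermediates, rose from 12.4 and 14.4 TPM to 52 and 50.2 TPM, a change of 1.89 (SE 0.14, adjusted p = 1.2e-06). The libraries of the stages were far apart in both genes. Of the 5 paralogs XRCC2 (1.14) was called as well, RAD51D (0.79, adjusted p = 0.00758) passed the p threshold, and RAD51B (1.35, adjusted p = 0.0738) did not.

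All 3 partners and motors were called, RAD54L at 1.86, RAD54B at 1.48 and RAD51AP1 at 1.29. So were both members of the ubiquitinated pair: FANCI rose from 47.7 and 51.5 TPM to 138 and 149 TPM (1.52, SE 0.15, adjusted p = 7.42e-06), and FANCD2 from 9.77 and 6.5 TPM to 24.5 and 14.6 TPM (1.20, SE 0.29, adjusted p = 0.00459). FANCD2 lost its call with protein-coding transcripts of at least 500 bases (adjusted p = 0.0712), with median-ratio scaling, in a fit of only these groups, and without immortalized library b or transformed library a at atmospheric oxygen. In the core complex 4 of 8 were called, FANCA (1.79), FANCG (1.75), FANCC (1.31) and FANCM (1.29). Among resolution and alternative end joining genes EME1 (1.88) and POLQ (1.49) were called, and MUS81 (0.80, adjusted p = 0.000757) passed the p threshold.

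BRCA1 was the only called gene of its group of 5, at 34.4 and 39.4 TPM in transformed cells against 13.9 and 15.4 TPM before (1.30, SE 0.15, adjusted p = 3.45e-05). BARD1 (0.87) and BRIP1 (0.99), a helicase bound to BRCA1, passed the p threshold, whereas BRCA2 (0.85) and PALB2 (0.28), the bridge between BRCA1 and BRCA2, did not. Resection and sensing genes were divided. BLM (1.61) and EXO1 (1.49) were called and RAD50 (0.64) passed the p threshold, while MRE11 (0.40), the nuclease of the sensing complex, its partner NBN (-0.03), DNA2 (0.51), a nuclease of long-range resection, and RBBP8 (0.57) did not. RAD50 no longer passed with protein-coding transcripts of at least 500 bases (0.10, adjusted p = 0.734), nor did its oxygen response in primary cells (-0.06, adjusted p = 0.88). Among the kinases and adaptors CLSPN (1.41) was called, TOPBP1 (0.95) and CHEK1 (0.65) passed the p threshold, and ATM (-0.44), ATR (0.48) and CHEK2 (0.29) did not.

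The same step at 3% oxygen gave no called member, where 16.3% of 12396 tested genes were called in either direction. At an unadjusted limma p under 0.05 there were 15 higher (38.5%) and 4 lower members (10.3%), beside 30.3% and 21.9% of tested genes. By the adjusted p threshold 8 members were higher (20.5%) beside 17% of tested genes, and 2 were lower (5.13%) beside 13.2%. The largest of these were XRCC3 (0.99) and TOPBP1 (0.94), and the lower ones were NBN (-0.83) and FANCF (-0.79). The median was 0.32 over the members and 0.11 over all tested genes. The difference between this step at 3% and at atmospheric oxygen is the same contrast as the change of the oxygen response given above.

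Between primary and immortalized cells at atmospheric oxygen no member was called by limma, and 12.2% of 12388 tested genes were; 3 higher (7.69%) and 18 lower members (46.2%) had an unadjusted p under 0.05, beside 19.9% and 26.1% of tested genes. By the adjusted p threshold 6 members were lower (15.4%) beside 12.6%: BLM (-0.99), MUS81 (-0.83), RAD51C (-0.80), FANCG (-0.79), CLSPN (-0.68) and FANCC (-0.68). PALB2 was the only higher one at 0.69 (2.56%), beside 10.1% of tested genes. The members' median was -0.38 with 33 of 39 negative. All tested genes had a median of -0.09 with 7012 of 12388 negative. At 3% oxygen 2 members were called lower (5.13%) beside 5.04% of 12218 tested genes, and 9 were lower by the p threshold (23.1%) beside 9.12%. The median there was -0.36 over the members and -0.06 over all tested genes. BLM fell from 19.2 and 19 TPM to 8.54 and 8.4 TPM, a change of -1.13 (SE 0.16, adjusted p = 0.000385). BRCA2, which loads the recombinase, was at 12.3 and 16.8 TPM before and at 7.22 and 5.94 TPM after (-1.08, SE 0.25, adjusted p = 0.00741). The libraries did not overlap in either gene, but the call of BRCA2 was lost in 19 of 27 alternative analyses, and that of BLM with protein-coding transcripts of at least 500 bases.

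From transformed to metastasizing cells at atmospheric oxygen 1 member was called higher (2.56%) beside 2.4% of 12203 tested genes, and 1 lower (2.56%) beside 1.72%. The lower one was FANCA, at 60 and 68.9 TPM in transformed and 32.4 and 26.9 TPM in metastasizing cells, a change of -1.11 (SE 0.15, adjusted p = 0.000689). FANCA was not called without transformed library b or without metastasizing library b, both at atmospheric oxygen. With protein-coding transcripts of at least 500 bases its change was -0.91 (adjusted p = 0.000774), under 2-fold. The higher one was RAD51B at 2.95 (SE 0.60, adjusted p = 0.00625), a call lost in 10 of 27 alternative analyses. At 3% oxygen no member was called at this step, where 5.92% of 12288 tested genes were, and 9 higher (23.1%) and 8 lower members (20.5%) had an unadjusted limma p under 0.05, beside 16.6% and 23.1% of tested genes. By the adjusted p threshold RAD51C was higher (0.61; 2.56% beside 5.57% of tested genes), and TOPBP1 (-0.60) and MUS81 (-0.82) were lower (5.13% beside 7.72%). Without metastasizing library b at 3% oxygen 1 member was called there, and without transformed library a at 3% oxygen 2 were.

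At no step or oxygen level were 18 of the 39 members called: ATM, ATR, BARD1, BRIP1, CHEK2, DNA2, FANCB, FANCE, FANCF, FANCL, MRE11, MUS81, NBN, PALB2, RAD50, RAD51D, RBBP8 and TOPBP1. That is 46.2% of the members, beside 62.4% of 11126 genes tested in all 10 comparisons. The adjusted p threshold was passed in none of the 10 comparisons by 5 of the 39 members (12.8%), beside 32.9% of those genes. The 2 large kinases at the head of the damage response, ATM and ATR, and the sensing complex of MRE11, RAD50 and NBN were all among the uncalled genes. A missed threshold does not show that their levels were equal.

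Other genes of the pathway and markers of proliferation moved beside the members in the comparisons with most calls, but not at every step. Of 46 further recombination and Fanconi genes, 3 were called higher at 3% oxygen in primary cells and 3 of 45 tested in immortalized cells, with medians of 0.45 and 0.40. FIGNL1, a regulator of recombinase filaments, and MCM8, a helicase of recombination, were called in both stages (1.09 and 1.16 for FIGNL1, 1.27 and 1.05 for MCM8). PSMC3IP (1.22) was the third in primary and the nuclease GEN1 (1.20) in immortalized cells. At the step from immortalized to transformed cells at atmospheric oxygen 16 of the 46 were called higher and none lower (median 0.81), among them PSMC3IP (1.70), ATRIP (1.50), which tethers ATR, TOP3A (1.34), the topoisomerase that works with BLM, and the single-strand binding subunit RPA1 (1.23). Of 12 genes of classical end joining, 1 was called higher in primary cells (the polymerase POLM, 1.09), none in immortalized cells and 1 at the step to transformed cells (the nuclease DCLRE1C, 1.29), with medians of 0.20, 0.30 and 0.41. Over all tested genes the shares called higher in these 3 comparisons were 2.78%, 2.13% and 13.2%.

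Of 12 proliferation markers, 2 were called higher at 3% oxygen in primary cells (MCM10, 1.22, and MKI67, 1.19; median 0.52), 5 in immortalized cells (median 0.98) and none in transformed or metastasizing cells (medians 0.00 and -0.14). At the step from immortalized to transformed cells at atmospheric oxygen 7 of the 12 were called higher (median 1.55), led by MCM10 (2.98) and AURKA (2.54). Their summed level was 750 and 854 TPM in immortalized cells at atmospheric oxygen, the lowest of the 8 groups, 1479 and 1387 TPM at 3% oxygen, and 2184 and 2076 TPM in transformed cells at atmospheric oxygen. The members themselves summed to 590 and 595 TPM, 983 and 969 TPM, and 1280 and 1253 TPM in these groups. At the step from immortalized to transformed cells at 3% oxygen 3 of the 12 markers were called higher (median 0.68) and no member (median 0.32). From primary to immortalized cells at atmospheric oxygen 3 markers were called lower (median -0.56) and no member (median -0.38). From transformed to metastasizing cells at atmospheric oxygen the lists parted in direction. The members' median was 0.24 with 32 of 39 positive, and that of the markers was -0.10 with 8 of 12 negative. All tested genes had a median of 0.06 with 6830 of 12203 positive. The part that the share of dividing cells has in the members' changes was not tested, and in these bulk samples fewer cells that express a gene and less RNA per cell cannot be told apart.

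Gene sums hide how the TPM were spread over 456 listed transcripts of the members. In 19 of the 39 members protein-coding transcripts of at least 500 bases held at least 80% of the sum (median over libraries), and in 8 they held under 50%. RAD51B is the extreme case. Its transcript RAD51B-214, of 249 bases at chr14:68290237-68301823 (GRCh37) and annotated as protein-coding, was at 347 and 149 TPM in metastasizing cells at atmospheric oxygen, at 56.3 TPM in transformed library a and at 7.73 TPM in primary library b at that oxygen level. In the other 12 libraries it was listed at 0 to 0.298 TPM. The remaining RAD51B transcripts together stayed between 8.81 and 19.5 TPM in all 16 libraries. With protein-coding transcripts of at least 500 bases the oxygen change of RAD51B in metastasizing cells was -0.07 (adjusted p = 0.761) and its step from transformed cells 0.51 (adjusted p = 0.0406), so neither call stood.

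ATM, the kinase that answers double-strand breaks, reached 90.2 TPM in primary library b at 3% oxygen against 24.8 TPM in library a. Of this 64.6 TPM belonged to ATM-205, a transcript of 258 bases without a defined coding sequence at chr11:108123548-108124723 (GRCh37), and the remaining ATM transcripts stayed between 12.4 and 30.6 TPM in all libraries. FANCD2 was led by FANCD2-208, of 449 bases and also without a defined coding sequence, which held a median of 50.4% of its TPM. Protein-coding transcripts of at least 500 bases held a median of 23.2% of FANCD2. By contrast the leading transcript of BRCA1 was the 7088-base BRCA1-203, at 7.45 and 7.04 TPM in primary cells at atmospheric and 15.6 and 19.1 TPM at 3% oxygen, which follows the direction of the gene sum. Pseudogene copies named after BRCA1, CHEK2, FANCD2, MRE11, RAD51AP1 and RBBP8 are listed in the table at up to 5.31 TPM for BRCA1P1 and at most 0.567 TPM for the others, so the levels of these 6 members are uncertain to the extent that reads were shared between copies.

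**Figure D5:**
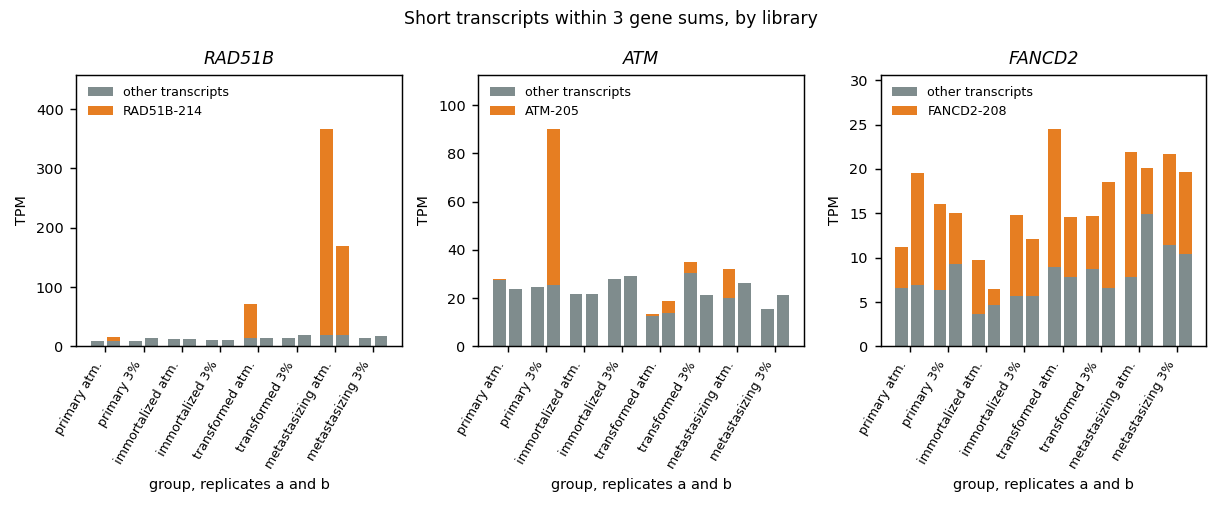
Stacked bars of TPM (vertical axis, from 0) in the 16 libraries (horizontal axis, replicates a and b of each group) for RAD51B, ATM and FANCD2, with 1 short transcript in orange and the sum of the others in grey. The orange part reaches 347 and 149 TPM for RAD51B in metastasizing cells at atmospheric oxygen and 64.6 TPM for ATM in primary library b at 3% oxygen, while the grey part of RAD51B reaches at most 19.5 TPM.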

How the data were processed

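The members, role groups and comparison lists were chosen with earlier results of these data known. The authors quantified stranded poly-A reads (HiSeq2500) with kallisto 0.42.1 against GRCh37 and deposited TPM per transcript; no read counts were used here, so depth and counting precision are unknown. Of 180253 transcripts, 151453 were matched by identifier to GENCODE 44 lifted to GRCh37 (holding 88.2% to 90.1% of each library's TPM) and summed to 34451 genes, of which 11654 to 11943 protein-coding ones exceeded 1 TPM per library. A stray header line was skipped.

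From these values log2(TPM + 0.5) was fitted in R 4.3.3 with limma 3.58.1, with 8 group coefficients and trended moderation, over protein-coding genes whose group mean reached 1 TPM in any group compared. Calls needed a Benjamini-Hochberg adjusted p under 0.01 and a change over 2-fold. The study's count-based test was not repeated. With 2 libraries against 2, an exact permutation test cannot go below a two-sided p of 0.333.

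Genes named in full were BRCA1, the highest member of each role group, and the 2 largest called rises and falls without overlap in each comparison; the others were singled out after their values were seen. Alternatives were pseudocounts of 1 and 0.1, no filter or 5 TPM, median-ratio and quantile scaling, a fit of only the groups compared, a replicate block, no trend, no fold limit, each library left out and, added after seeing the data, a crossed block and gene sums over protein-coding transcripts of at least 500 bases. No link between plates of the same letter in different groups was stated, and the main fit assumed none. Deviations of same-letter libraries correlated between -0.155 and 0.226. With 2 libraries per group these values cannot decide whether plates were paired. Tables were made with Python 3.11.15, pandas 2.3.3 and numpy 2.4.6 and figures with matplotlib 3.10.9.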

Additional observations from a re-analysis of the deposited data

Results flagged for a closer look

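The oxygen response differed between neighbouring stages for 12 members in the direct limma test of the difference. Between immortalized and transformed cells the difference (transformed minus immortalized, log2 scale) was -2.16 for EME1, -1.55 for RAD51C, -1.46 for RAD54L, -1.34 for FANCG, -1.28 for BLM, -1.28 for RAD54B, -1.27 for FANCA, -1.18 for EXO1, -1.15 for BARD1, -1.14 for CLSPN and -1.08 for ATR. These 11 are 28.2% of the members, beside 5.84% of all tested genes, and the calls of ATR and RAD54B were lost in 15 and 17 of 27 alternative analyses. All 11 had positive oxygen changes in immortalized cells and all but CLSPN negative ones in transformed cells. They were selected by this difference, so their signs partly follow from the choice. Of all 39 members, 38 were positive in immortalized cells, beside 7099 of 12049 tested genes. In transformed cells 25 of the 39 were negative, beside 6008 of 12242 tested genes. Between transformed and metastasizing cells the difference was -1.10 for TOPBP1, whose level was higher at 3% oxygen in transformed cells (0.86) and not in metastasizing cells (-0.24). This single member is 2.56% of the set, below the 5.62% of all tested genes, and its call was lost in 4 of 27 alternative analyses. The proliferation markers had a median difference of -0.97 between immortalized and transformed cells, with 3 of 12 called, and their part in the members' difference was not tested.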

How the results depend on the processing

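Over the 13 counts of called members and 28 alternatives, 301 of 364 values stayed within 1.5 times the reported count; the others follow, and their cause was not tested beyond what the alternative itself removes. Of 1404 values for single genes, 1271 kept direction and call, 132 kept the direction only, 1 gained a call (BRCA1 for oxygen in immortalized cells, without immortalized library b at atmospheric oxygen) and 0 reversed. No fold limit gave 21, 19, 6 and 3 members for oxygen in primary, immortalized, transformed and metastasizing cells, 7 and 9 from primary to immortalized at atmospheric and 3% oxygen, 10 from immortalized to transformed and 3 from transformed to metastasizing at 3% oxygen, and 18 and 2 for the later differences of oxygen response. A fit of only the groups compared gave 2 for oxygen in primary cells, 1 from transformed to metastasizing at atmospheric oxygen, 1 from primary to immortalized at 3% oxygen and 0 for the last difference of response. Median-ratio scaling gave 3 for oxygen in immortalized cells and 0 for the last difference, and shifted the median of all tested genes by over 0.1 in these 2, in oxygen in metastasizing cells (from -0.13 to 0.00), in the step to transformed cells at atmospheric oxygen (from 0.22 to 0.00) and in the difference between immortalized and transformed cells (from -0.08 to 0.03). Quantile scaling gave 4 for oxygen in immortalized cells and 1 from primary to immortalized at 3% oxygen. No filter gave 1 for that step and 1 from transformed to metastasizing at atmospheric oxygen. A pseudocount of 0.1 gave 1 from primary to immortalized at atmospheric and 1 from immortalized to transformed at 3% oxygen. Long protein-coding transcripts gave 1 and 0 for oxygen in transformed and metastasizing cells, 1 and 0 from primary to immortalized at atmospheric and 3% oxygen, 1 from immortalized to transformed at 3%, 0 from transformed to metastasizing at atmospheric oxygen and 0 for the last difference.

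With the replicate block, 10 members instead of 11 were called in the difference between immortalized and transformed cells, where ATR was lost, and the other 12 counts were as reported. The crossed block gave 1 from primary to immortalized at 3% oxygen and 2 for the last difference of response. Leaving out each library gave 7 to 10, 4 to 7, 0 to 1 and 0 to 2 members for oxygen by stage, 0 to 1, 17 to 19 and 0 to 2 for the steps at atmospheric oxygen, 1 to 3, 0 to 1 and 0 to 2 for those at 3%, and 0, 8 to 13 and 1 to 2 for the differences. The depth of the libraries is unknown, so it sets no stated limit, and 2 plates per group limit the precision.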
